A study of Mus musculus with 5 samples.

Results

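The genes described here were the replication-dependent histone genes that the deposited tables list under symbols starting with HIST1H, 9 genes of 55348 symbols listed. They were taken by symbol, as every symbol starting with HIST1H, HIST2H, HIST3H or HIST4H in the 3 tables that hold Control with PAZA, BMN with BMN/PAZA-Low and BMN with BMN/PAZA-High. The 9 genes comprised 4 of the H2A family (HIST1H2AL, HIST1H2AN, HIST1H2AO and HIST1H2AP), 3 of the H2B family (HIST1H2BP, HIST1H2BQ and HIST1H2BR) and 2 of the H4 family (HIST1H4M and HIST1H4N). No H1 or H3 gene and no gene of the HIST2H, HIST3H or HIST4H series was found by this rule. The tables list 61 further replication-dependent histone genes under newer symbols such as H2AC15 or H4C4, of which 56 were above 0 in at least 1 group. The 9 HIST1H symbols are therefore a small remainder of the histone genes and not the whole class, and the 56 genes are used below only for comparison.

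LLC is a mouse Lewis lung carcinoma line, and RNA sequencing was available for 1 library in each of 5 groups. Control is named in the labels without an agent, BMN received the PARP inhibitor BMN673, PAZA received a polymer carrier to which the DNA methylation inhibitor 5-azacytidine is conjugated, and BMN/PAZA-Low and BMN/PAZA-High received BMN in the PAZA carrier at a low and a high dose. The labels describe LLC cells kept in culture and treated for 72 h, whereas the study's methods describe LLC tumors collected from mice one day after the last treatment. Fibroblast, macrophage and endothelial markers were present in all 5 libraries and the lung epithelial markers were at 0 or not listed apart from AGER, at 0.592 in BMN/PAZA-Low. With 1 library per group, no difference could be set against the spread between replicates, so every value below is that of a single library and no p-value is given. Fewer cells of a type and less RNA per cell cannot be told apart in such bulk samples.

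Replication-dependent histone genes supply the core histones H2A, H2B, H3 and H4 and the linker histone H1 that package new DNA during S phase. Their genes lie in clusters, mostly lack introns and are transcribed together in nuclear histone locus bodies around the coactivator NPAT. Their mRNAs usually carry no poly(A) tail and end in a short conserved stem-loop, which the stem-loop binding protein SLBP holds during processing, translation and decay. In proliferating tumor cells, they are among the transcripts tied most closely to DNA synthesis.

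By GENCODE M21 on GRCm38, 8 of the 9 genes lay in a single stretch of 50.7 kb on chromosome 13, at chr13:21786826-21837530. The stretch held the gene pairs HIST1H2AN with HIST1H2BP, HIST1H2BQ with HIST1H2AO, and HIST1H2AP with HIST1H2BR, each an H2A and an H2B gene transcribed away from each other with 242, 267 and 235 bases between them. HIST1H4M followed HIST1H2AO by 801 bases on the same strand, and HIST1H4N followed HIST1H2AP by 829 bases, so that the second and the third pair with their H4 gene mirror each other. The ninth gene, HIST1H2AL, was 29.4 Mb away at chr13:51202727-51203065 on the minus strand and is annotated as a processed pseudogene of H2A. The other 8 are annotated as protein coding, and 5 of them (HIST1H2AN, HIST1H2AO, HIST1H2AP, HIST1H4M and HIST1H4N) have 1 transcript of a single exon.

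**Figure D1:**
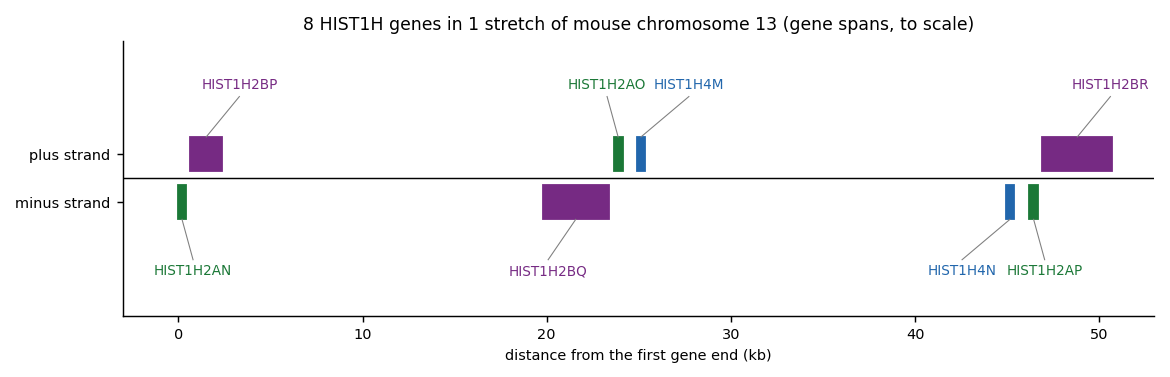
Spans of the 8 HIST1H genes of 1 stretch of chromosome 13, drawn to scale as distance in kb from the first gene end, plus strand above and minus strand below the line. The group of HIST1H2BQ, HIST1H2AO and HIST1H4M on the left is repeated in mirror order by HIST1H4N, HIST1H2AP and HIST1H2BR on the right.

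The mirrored genes were copies of each other. The coding sequences of HIST1H2AO and HIST1H2AP (393 bases), of HIST1H2BQ and HIST1H2BR (381 bases) and of HIST1H4M and HIST1H4N (312 bases) were 100% identical. HIST1H2AN differed from HIST1H2AP at 5 bases (98.7% identity) and HIST1H2BP differed from HIST1H2BQ at 6 bases (98.4% identity). Cut into overlapping windows of 50 bases, the coding sequences of these 6 identical genes were found whole, 100% of their windows, in transcripts of other genes, whereas the share was 85.8% for HIST1H2AN, 79.2% for HIST1H2BP and 67.6% for HIST1H2AL. The split of reads between HIST1H2AO and HIST1H2AP, HIST1H2BQ and HIST1H2BR, or HIST1H4M and HIST1H4N is therefore uncertain, and the sums of the couples are given beside the single values. Reads could also be shared with genes outside the list. At least 1 window of each H4 member was found in 11 other genes and of HIST1H2AP in 48, counts that include other members of the list.

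Transcript models of 5 members held the histone stem-loop, shown with the 16 bases of stem and loop in capitals because this end is what sets these mRNAs apart from other mRNAs.
HIST1H2AO: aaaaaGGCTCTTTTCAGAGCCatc
HIST1H2AP: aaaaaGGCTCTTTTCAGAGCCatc
HIST1H2BP: acaaaGGCTCTTTTCAGAGCCacc
HIST1H4M: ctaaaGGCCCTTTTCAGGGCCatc
HIST1H4N: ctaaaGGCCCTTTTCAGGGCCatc
The search took only a fully paired stem that starts with GG and a loop of TTTC or TTTT. The H2A and H2B genes shared 1 set of capitals and the H4 genes another, and their shared loop was largely set by the search. The models of HIST1H2AN, HIST1H2AL, HIST1H2BQ and HIST1H2BR held no such match. A stem-loop with another loop would have been missed, so this does not show that they lack one. The model of HIST1H2AN stops at its stop codon, so its end could not be read.

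The bases before 3 members are shown because they cover the H2A and H2B gene pairs and an H4 gene, whose levels are set side by side below. Promoter windows of RefSeq (GRCm38.p6) were matched for 8 of the 9 genes. Each run below gives bases before both the RefSeq and the GENCODE start, 5′ to 3′ on the gene's own strand (250 for HIST1H2AN and HIST1H4N, 218 for HIST1H2AP, whose RefSeq start lies 32 bases inside the GENCODE span), and capitals mark 4 motifs searched on both strands. These were CCAAT, which NF-Y binds, the TATA box letters TATAA, the octamer ATTTGNAT, which POU2F1 binds, and GGTCCG from the element that HINFP binds in H4 promoters. No marked motif overlapped another in these runs.
HIST1H2AN, chr13:21787249-21787498, minus strand: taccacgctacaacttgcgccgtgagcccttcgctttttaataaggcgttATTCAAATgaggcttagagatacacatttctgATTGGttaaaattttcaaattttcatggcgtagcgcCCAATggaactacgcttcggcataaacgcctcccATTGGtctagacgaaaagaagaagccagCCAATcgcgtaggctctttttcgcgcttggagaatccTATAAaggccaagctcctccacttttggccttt
HIST1H2AP, chr13:21833508-21833725, minus strand: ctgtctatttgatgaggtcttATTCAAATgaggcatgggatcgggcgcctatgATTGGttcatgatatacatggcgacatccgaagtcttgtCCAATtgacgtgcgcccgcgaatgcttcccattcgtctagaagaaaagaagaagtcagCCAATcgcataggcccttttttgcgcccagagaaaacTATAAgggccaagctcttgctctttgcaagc
HIST1H4N, chr13:21832198-21832447, minus strand: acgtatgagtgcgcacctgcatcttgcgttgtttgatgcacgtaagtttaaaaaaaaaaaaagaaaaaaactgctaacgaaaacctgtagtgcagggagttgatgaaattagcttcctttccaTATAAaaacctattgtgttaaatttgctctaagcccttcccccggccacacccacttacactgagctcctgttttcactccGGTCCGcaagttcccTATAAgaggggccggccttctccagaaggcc
In windows of 300 bases, the octamer was found in 6 of 8 members, which are the 6 H2A and H2B genes, in 20 of 55 other histone promoters and in 4.36% of 32851 promoters of all genes. CCAAT was found in the same 6 members, in 48 of 55 other histone promoters and in 37.4% of all promoters. GGTCCG was found in the 2 H4 members, in 11 of 55 other histone promoters and in 8.25% of all. TATAA was found in all 8 members, in 42 of 55 other histone promoters and in 24.9% of all. The windows of HIST1H2BQ and HIST1H2BR were the same over all 300 bases, and those of HIST1H4M and HIST1H4N shared an unbroken run of 285 bases. Each H2A window also shared most of its bases with its H2B partner, in runs of 261 bases for HIST1H2AN with HIST1H2BP, 267 for HIST1H2AO with HIST1H2BQ and 233 for HIST1H2AP with HIST1H2BR. HIST1H2AO and HIST1H2AP shared a run of 200. The counts of members with a motif are therefore not counts of separate sequences. These matches describe the letters and do not show binding.

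Levels are given on one scale, on which each library's values, read as FPKM (fragments per kilobase of transcript, scaled for library size), sum to 1000000 over the 13979 symbols that the 3 tables share. The summed level of the 8 members listed in every group was 46.9 in Control, 53.9 in BMN, 98.7 in PAZA, 107 in BMN/PAZA-Low and 59.4 in BMN/PAZA-High. The members were highest in PAZA and BMN/PAZA-Low, at 2.10 and 2.28 times Control, whereas BMN stood at 1.15 times and BMN/PAZA-High at 1.27 times. The 56 other histone genes summed to 2190, 2853, 3465, 2852 and 2321 in the same order, which is 1.30, 1.58, 1.30 and 1.06 times Control. The HIST1H symbols thus held 2.10% of the histone sum in Control, 1.85% in BMN, 2.77% in PAZA, 3.62% in BMN/PAZA-Low and 2.49% in BMN/PAZA-High.

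**Figure D2:**
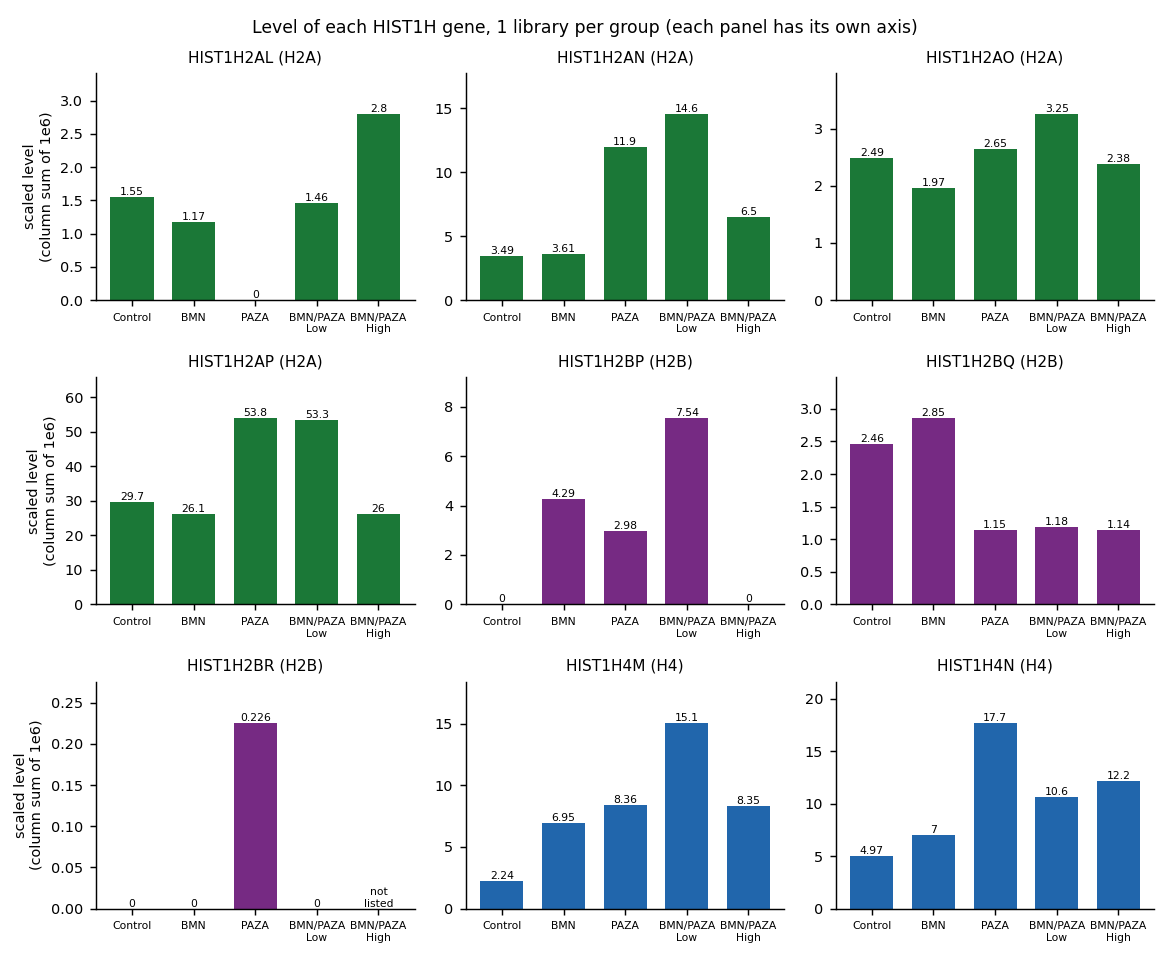
Scaled level of each of the 9 HIST1H genes in the 5 groups, 1 library and 1 bar per group, coloured by family, with the value above each bar and an axis of its own in each panel. HIST1H2AP is the most abundant at 26.0 to 53.8, HIST1H2BP is listed at 0 in Control and BMN/PAZA-High, and HIST1H2BR is above 0 only in PAZA.

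In the H2A family, which wraps DNA as a dimer with H2B, HIST1H2AP had the highest level of all members. Its level was 29.7 in Control, 26.1 in BMN, 53.8 in PAZA, 53.3 in BMN/PAZA-Low and 26.0 in BMN/PAZA-High. The libraries fell into a higher pair, PAZA and BMN/PAZA-Low, and a lower trio of Control, BMN and BMN/PAZA-High. HIST1H2AO, its identical copy, was listed at 2.49, 1.97, 2.65, 3.25 and 2.38 in the same order, within a 1.65-fold range. Summed, the couple stood at 32.2 in Control, 28.0 in BMN, 56.5 in PAZA, 56.6 in BMN/PAZA-Low and 28.4 in BMN/PAZA-High. The sum therefore showed the same high pair and low trio as HIST1H2AP alone.

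HIST1H2AN, the H2A gene of the first divergent pair, was listed at 3.49 in Control, 3.61 in BMN, 11.9 in PAZA, 14.6 in BMN/PAZA-Low and 6.50 in BMN/PAZA-High. The 3 libraries that received PAZA were above the 2 that did not, with BMN/PAZA-High the lowest of the 3 and a 4.17-fold range over all libraries. HIST1H2AL, the distant pseudogene, was listed at 1.55 in Control, 1.17 in BMN, 0 in PAZA, 1.46 in BMN/PAZA-Low and 2.80 in BMN/PAZA-High. It was the one H2A member highest in BMN/PAZA-High and at 0 in PAZA. The 4 H2A members summed to 37.2, 32.8, 68.4, 72.6 and 37.7, against 198, 241, 297, 257 and 245 for the 15 other H2A genes.

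The 3 H2B members were weakly expressed and did not move together. HIST1H2BP, whose promoter window shares a run of 261 bases with that of HIST1H2AN on the opposite strand, was listed at 0 in Control, 4.29 in BMN, 2.98 in PAZA, 7.54 in BMN/PAZA-Low and 0 in BMN/PAZA-High. It was thus above 0 in BMN while HIST1H2AN stood near its Control level there, and at 0 in BMN/PAZA-High while HIST1H2AN was above Control. HIST1H2BQ was listed at 2.46 in Control, 2.85 in BMN, 1.15 in PAZA, 1.18 in BMN/PAZA-Low and 1.14 in BMN/PAZA-High. The 3 libraries with PAZA were below the 2 without it, the opposite order to HIST1H2AN and to the H4 members. HIST1H2BR, its identical copy, was at 0.226 in PAZA, at 0 in Control, BMN and BMN/PAZA-Low, and not listed for BMN/PAZA-High, and the couple summed to 2.46, 2.85, 1.37, 1.18 and 1.14. The 14 other H2B genes summed to 1197, 1490, 1820, 1410 and 998, and most of this was H2BC18, at 852, 1121, 1343, 989 and 649. The H2B members were a very small part of the family.

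H4 is the partner of H3 in the centre of the nucleosome. HIST1H4M was listed at 2.24 in Control, 6.95 in BMN, 8.36 in PAZA, 15.1 in BMN/PAZA-Low and 8.35 in BMN/PAZA-High. HIST1H4N was listed at 4.97 in Control, 7.002 in BMN, 17.7 in PAZA, 10.6 in BMN/PAZA-Low and 12.2 in BMN/PAZA-High. Both were lowest in Control and next lowest in BMN, but the order of PAZA and BMN/PAZA-Low was opposite in the 2 copies. Their sum was 7.21 in Control, 14.0 in BMN, 26.1 in PAZA, 25.7 in BMN/PAZA-Low and 20.5 in BMN/PAZA-High, so that in the sum, which depends less on how reads were split between the 2, PAZA and BMN/PAZA-Low stood close together. The sum was 1.94 times Control in BMN, 3.62 times in PAZA, 3.57 times in BMN/PAZA-Low and 2.85 times in BMN/PAZA-High. The 11 other H4 genes, led by H4C4 and H4C8, stood at 1.39, 1.63, 1.45 and 1.38 times Control.

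The first comparison asks what the PAZA carrier alone did, and both columns come from one table. Changes are given as log2 differences of (scaled level + 1), which understates the change of weakly expressed genes, and a gene is counted as changed in size when it differs by at least 2-fold on this scale (log2 of 1). In PAZA against Control, 4 of 9 members were at least 2-fold higher and 1 was at least 2-fold lower, where 4.55% and 4.42% of all 20236 genes were. HIST1H4N was 1.65 higher, HIST1H4M 1.53 higher and HIST1H2AN 1.53 higher on the log2 scale, and the fourth was HIST1H2BP, listed at 0 in Control. HIST1H2AL was the lower one, listed at 0 in PAZA. HIST1H2AP was 0.84 higher, HIST1H2AO 0.06 higher and HIST1H2BQ 0.69 lower, and HIST1H2BR, listed at 0 in Control, was at 0.226 in PAZA. Summed, the H4 couple was 1.72 higher, HIST1H2AO with HIST1H2AP 0.79 higher and HIST1H2BQ with HIST1H2BR 0.55 lower. The median was 0.84 over the members, 0.63 over 56 other histone genes and -0.04 over all genes. With a pseudocount of 0.1 the members' median was 1.70, which is the value of HIST1H2BR, at 0 in Control, and so is set by the pseudocount. Among members with a mean level of at least 1 it was 1.53, where HIST1H2BP passed through PAZA alone and HIST1H2AL was removed, so neither value supports a larger difference. Of the other histone genes, 46 of 56 were higher in PAZA, beside 45.03% of all genes.

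In BMN against Control, which come from different tables, 2 of 8 members were at least 2-fold higher and 0 were lower by that much, beside 4.63% and 3.7% of all genes. The 2 were HIST1H4M, 1.30 higher on the log2 scale, and HIST1H2BP, listed at 0 in Control. The H2A members stayed near Control, from 0.23 lower for HIST1H2AO to 0.04 higher for HIST1H2AN, whereas HIST1H4N was 0.42 higher and HIST1H2BQ 0.15 higher. The H4 couple summed was 0.87 higher and so below 2-fold, HIST1H2AO with HIST1H2AP was 0.19 lower, and with copies summed the 1 gene left past 2-fold was HIST1H2BP. The median was 0.10 over the members, 0.30 over the other histone genes and 0.06 over all genes, and 41 of 56 other histone genes were higher, beside 55.1% of all genes.

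In BMN/PAZA-Low against Control, again across tables, 3 of 8 members were at least 2-fold higher and 0 lower, beside 4.44% and 4.85% of all genes. These were HIST1H4M, 2.31 higher on the log2 scale, HIST1H2AN, 1.79 higher, and HIST1H2BP, listed at 0 in Control. HIST1H4N was 0.96, HIST1H2AP 0.82 and HIST1H2AO 0.28 higher, whereas HIST1H2AL was 0.05 and HIST1H2BQ 0.67 lower. The H4 couple summed was 1.70 higher and HIST1H2AO with HIST1H2AP 0.79 higher. The median was 0.89 over the members, 0.46 over 56 other histone genes and -0.04 over all genes, and 42 of the 56 were higher, beside 47.2% of all genes.

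In BMN/PAZA-High against Control, also across tables, 2 of 7 members were at least 2-fold higher and 0 lower, beside 3.2% and 4.95% of all genes. Both were H4 genes, HIST1H4M at 1.53 and HIST1H4N at 1.14 higher on the log2 scale. HIST1H2AN was 0.74 higher and HIST1H2AL 0.58 higher, whereas HIST1H2AO was 0.05, HIST1H2AP 0.18 and HIST1H2BQ 0.69 lower. The H4 couple summed was 1.39 higher and HIST1H2AO with HIST1H2AP 0.18 lower. The median was 0.58 over the members and 0.31 over 55 other histone genes, while the median of all genes was -0.17, so the members' median relative to all genes is larger than its value. Of these 55, 36 were higher, beside 35.5% of all genes. The 4 comparisons with Control share that library, and their values are set side by side without a test of their likeness.

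**Figure D3:**
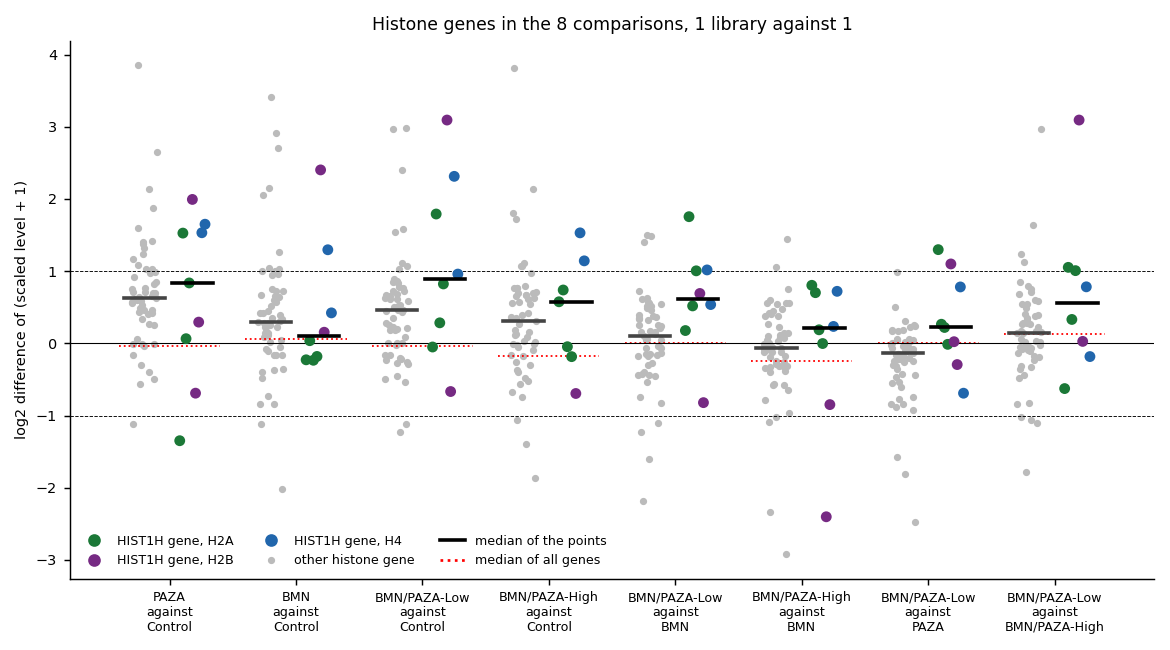
Differences of log2(scaled level + 1) in the 8 comparisons, 1 library against 1, for the HIST1H genes (coloured by family) and the other histone genes (grey), with bars at the medians, a dotted line at the median of all genes and dashed lines at 2-fold. The member medians lie between 0.10 and 0.89, and HIST1H2BQ is below 0 in PAZA, BMN/PAZA-Low and BMN/PAZA-High against Control.

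BMN/PAZA-Low and BMN/PAZA-High were then set against BMN, each within 1 table. By the paper, the doses of BMN and 5-azacytidine were raised together, and BMN alone was given at the low dose. BMN/PAZA-High against BMN therefore does not show what PAZA alone added. BMN was also given without the carrier in the BMN group, so neither comparison separates 5-azacytidine from the carrier. In BMN/PAZA-Low against BMN, 3 of 8 members were at least 2-fold higher and 0 lower, beside 4.92% and 4.82% of all 24374 genes. These were HIST1H2AN, 1.75 higher on the log2 scale, HIST1H4M, 1.02 higher, and HIST1H2AP, 1.005 higher, and the last 2 lie at the threshold. With copies summed, the H4 couple was 0.84 and HIST1H2AO with HIST1H2AP 0.99 higher, both below 2-fold, which left HIST1H2AN as the 1 gene past it. HIST1H2BP, HIST1H4N, HIST1H2AO and HIST1H2AL were 0.69, 0.54, 0.52 and 0.18 higher, and HIST1H2BQ was the only member lower, by 0.82. The median was 0.61 over the members, 0.10 over 55 other histone genes and 0.01 over all genes.

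In BMN/PAZA-High against BMN, 0 of 8 members were at least 2-fold higher and 1 was at least 2-fold lower, beside 2.45% and 6.63% of all 14460 genes. The one was HIST1H2BP, listed at 0 in BMN/PAZA-High. HIST1H2AL, HIST1H4N and HIST1H2AN were 0.80, 0.72 and 0.70 higher on the log2 scale, HIST1H4M and HIST1H2AO were 0.23 and 0.19 higher, HIST1H2AP gave a difference of -0.003, and HIST1H2BQ was 0.85 lower. The H4 couple summed was 0.53 and HIST1H2AO with HIST1H2AP 0.02 higher. The median was 0.21 over the members, -0.06 over 56 other histone genes and -0.25 over all genes. Relative to the median of all genes, HIST1H2AL was 1.05 higher and so past 2-fold, HIST1H4N 0.97 and HIST1H2AN 0.95 higher.

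The question of what BMN added to PAZA was addressed across tables. Against PAZA, BMN/PAZA-Low held 2 of 9 members at least 2-fold higher and 0 lower, beside 3.42% and 4.18% of all genes. These were HIST1H2AL, listed at 0 in PAZA, and HIST1H2BP, 1.10 higher on the log2 scale. HIST1H4M was 0.78 higher and its copy HIST1H4N 0.69 lower, whereas their sum differed by -0.02, that of HIST1H2AO with HIST1H2AP by 0.002 and that of HIST1H2BQ with HIST1H2BR by -0.12. HIST1H2AN was 0.26, HIST1H2AO 0.22 and HIST1H2BQ 0.02 higher, HIST1H2AP was 0.01 lower, and HIST1H2BR was listed at 0 in BMN/PAZA-Low. The median was 0.22 over the members, -0.13 over 55 other histone genes and 0.01 over all genes.

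The 2 doses of the combination were then compared, with their columns taken from different tables. In BMN/PAZA-Low against BMN/PAZA-High, 3 of 8 members were at least 2-fold higher and 0 lower, beside 4.06% and 2.44% of all genes. HIST1H2AN was 1.05 higher and HIST1H2AP 1.01 higher on the log2 scale, and HIST1H2BP was listed at 0 at the high dose. The first 2 lie at the threshold and fell below it relative to the median of all genes, at 0.92 and 0.87. HIST1H2AO with HIST1H2AP summed was 0.97 higher, below 2-fold, and the H4 couple 0.31 higher. HIST1H4M was 0.78 higher, HIST1H2AO 0.33 higher and HIST1H2BQ 0.03 higher, whereas HIST1H4N was 0.18 and HIST1H2AL 0.63 lower. The median was 0.56 over the members, 0.14 over the other histone genes and 0.13 over all genes.

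**Figure D4:**
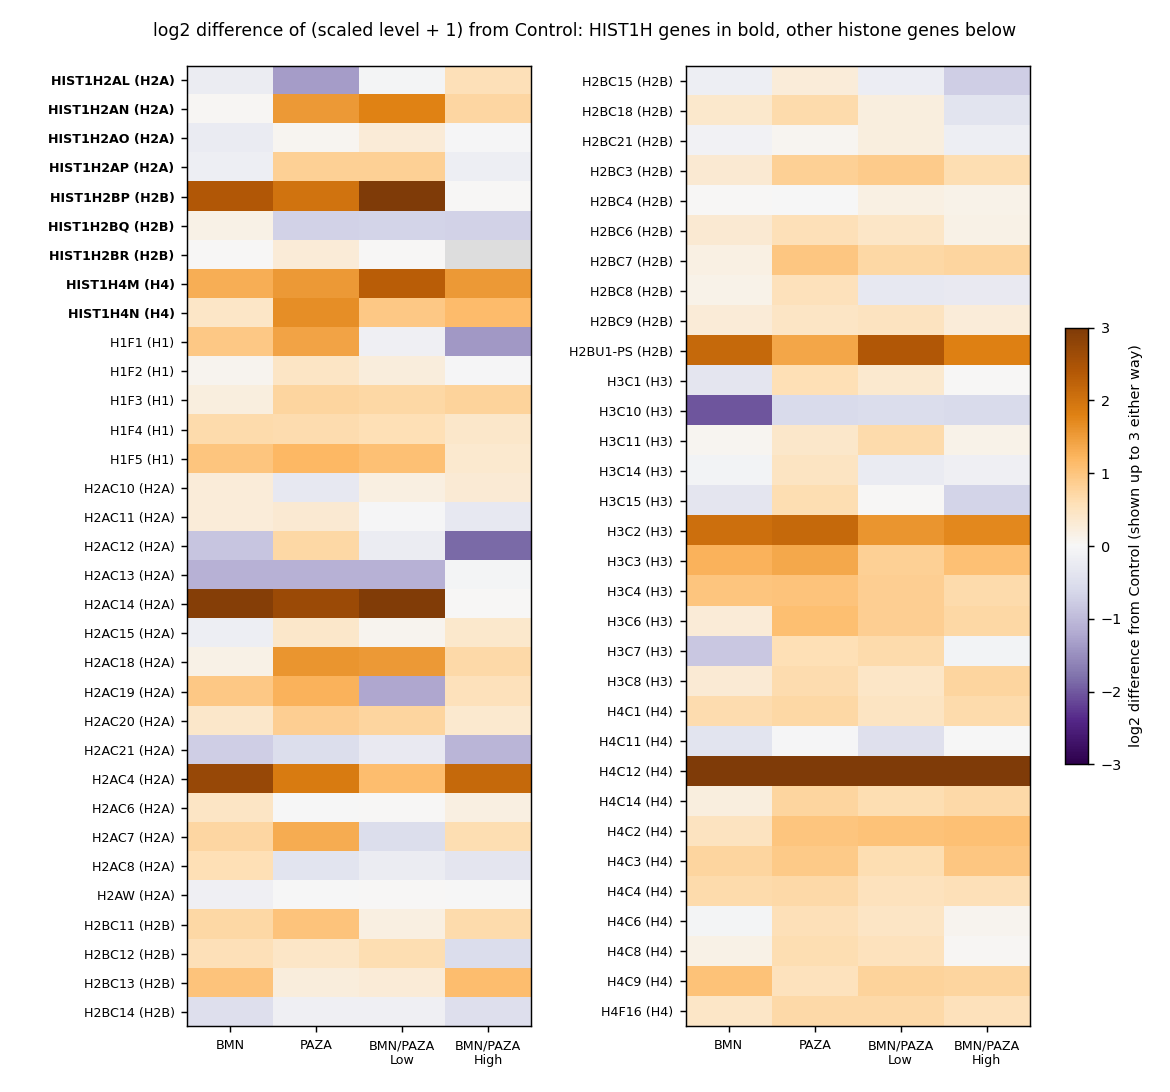
Difference of log2(scaled level + 1) from Control for the 9 HIST1H genes (bold) and the 56 other histone genes in BMN, PAZA, BMN/PAZA-Low and BMN/PAZA-High, with a grey cell where a gene is not listed and colours ending at 3 either way. Most cells of the PAZA column are above 0, as for 46 of the 56 other genes, while HIST1H2AL and HIST1H2BQ are below 0 there.

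The linker histones, which bind the DNA between nucleosomes, carried no HIST1H symbol in these tables. Their 5 somatic genes, H1F1 to H1F5, summed to 116 in Control, 181 in BMN, 212 in PAZA, 175 in BMN/PAZA-Low and 133 in BMN/PAZA-High. H1F4 was the most abundant of them, at 38.5, 61.3, 60.8, 58.3 and 51.7. The 11 H3 genes summed to 105, 143, 203, 176 and 156. Both families were highest in PAZA.

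Histone genes that do not depend on the stem-loop alone are given for comparison. The 6 histone genes known to give polyadenylated transcripts as well, among them H1F2 and H2BC4, summed to 79.8, 81.7, 103, 100.4 and 84.4. Against Control, their median log2 difference was 0.03 in PAZA, 0.06 in BMN, 0.20 in BMN/PAZA-Low and 0.05 in BMN/PAZA-High, beside -0.04, 0.06, -0.04 and -0.17 over all genes. In the same order, 3, 4, 6 and 3 of the 6 were higher, beside 45.03%, 55.1%, 47.2% and 35.5% of all genes. In PAZA and in BMN/PAZA-Low 1 of the 6 was at least 2-fold higher, beside 4.55% and 4.44% of all genes. The 11 replication-independent histone genes, which supply variants such as H3.3 (H3F3A, H3F3B) and H2A.Z (H2AZ1) outside S phase, summed to 1534, 1537, 1679, 1703 and 1394, and 0 of the 10 compared were 2-fold apart in any of the 4 comparisons with Control, where between 3.2% and 4.95% of all genes were in either direction, so a count of 0 among 10 is near the share over all genes. The 3 testis-specific genes were at 0 or not listed.

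The factors that make histone mRNA are given beside the members. The 16 genes of histone transcription and 3′ end processing summed to 592 in Control, 523 in BMN, 474 in PAZA, 450 in BMN/PAZA-Low and 389 in BMN/PAZA-High. Of the 16, 9 were higher and 7 lower in PAZA against Control (median log2 difference 0.05), 8 and 8 in BMN (-0.02), 4 and 12 in BMN/PAZA-Low (-0.12) and 4 and 12 in BMN/PAZA-High (-0.39). Of all genes, 45.03%, 55.1%, 47.2% and 35.5% were higher in these comparisons, with medians of -0.04, 0.06, -0.04 and -0.17, so the lower values in BMN/PAZA-High stand beside a lower median of all genes there. NPAT, the coactivator, was at 24.0, 20.5, 19.0, 16.4 and 16.7, and SLBP, the stem-loop binding protein, at 57.5, 71.8, 69.3, 54.0 and 51.5. ERI1, an exonuclease of the histone mRNA end, was at 166, 123, 101, 102 and 78.0, and CASP8AP2, a histone locus body protein, at 92.9, 67.1, 49.6, 69.1 and 57.3. The 17 chaperones and assembly factors summed to 1850, 2312, 1527, 1709 and 1322, led by NAP1L1, a chaperone of H2A and H2B, at 563, 702, 508, 489 and 434.

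Cell cycle genes were likewise set beside the members. The 22 S phase genes summed to 1777 in Control, 2587 in BMN, 1888 in PAZA, 1814 in BMN/PAZA-Low and 1466 in BMN/PAZA-High, so they were highest in BMN, where the H2A members summed to 0.882 times, the H4 members to 1.94 times and the H2B members to 2.899 times Control. PCNA, the sliding clamp of DNA polymerase, was at 480, 951, 507, 617 and 364. The 15 genes of G2 and mitosis summed to 1106, 1391, 1218, 1023 and 1008.

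Several RNAs that carry no poly(A) tail also differed between the libraries. They were chosen after their values were seen. RN7SK, the scaffold of the 7SK particle, was at 85131 in Control, 66613 in BMN, 113838 in PAZA, 133614 in BMN/PAZA-Low and 99816 in BMN/PAZA-High, and by itself made up 8.51%, 6.66%, 11.4%, 13.4% and 9.98% of the scaled total. RPPH1, the RNA of RNase P, was at 898, 645, 2140, 2460 and 2070, and RN7S2, a signal recognition particle RNA, at 1211, 819, 2280, 2963 and 1802. All 3 were lowest in BMN and highest in BMN/PAZA-Low, where the summed level of the members was also highest, but that of the members was lowest in Control. RMRP went otherwise, at 2822, 84.9, 4762, 263 and 3995. The study calls its data messenger RNA sequencing and the labels give total RNA as the molecule. The step by which mRNA was selected was not given in the sources used here, and the part of these RNAs in the members' result was not tested.

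**Figure D5:**
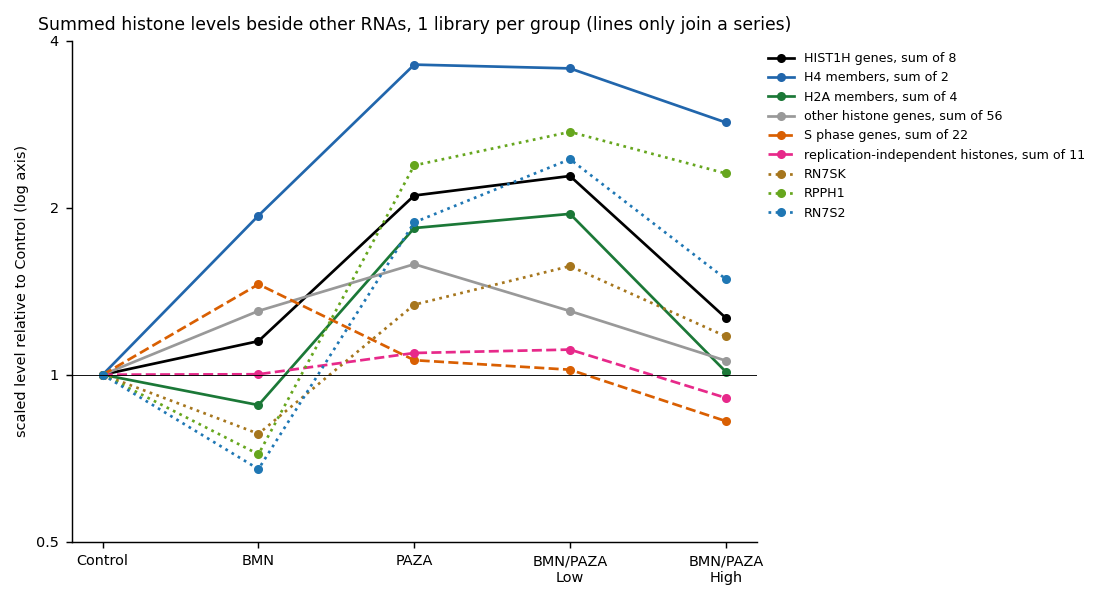
Summed scaled level relative to Control on a log axis, 1 library per group, for the HIST1H genes, their H2A and H4 members, the other histone genes, S phase genes, replication-independent histone genes and 3 RNAs without a poly(A) tail. The H4 members reach 3.62 and 3.57 in PAZA and BMN/PAZA-Low, and RN7SK, RPPH1 and RN7S2 are below Control in BMN and above it in the 3 libraries with PAZA.

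Markers of other tissues differed between the libraries as well. The 7 skeletal muscle markers, all above 0 in some library, summed to 12.7 in Control, 195 in BMN, 64.0 in PAZA, 11.2 in BMN/PAZA-Low and 220 in BMN/PAZA-High. The epidermal markers, 6 of 7 above 0, summed to 71.0, 291, 8.09, 2.94 and 13.3, and the 6 fibroblast markers to 313, 817, 534, 312 and 350. The 5 endothelial markers summed to 35.9, 55.6, 61.5, 41.5 and 40.8. The 5 adipocyte markers, not all listed in every group, summed to 44.5, 74.2, 104.5, 51.2 and 63.9. Both sums were highest in PAZA, where the other histone genes were highest too. The T cell sum was also highest in PAZA, and the leukocyte and macrophage sums were highest in BMN. The epidermal sum was lowest in BMN/PAZA-Low and next lowest in PAZA, where the summed level of the members was highest and next highest, and it was highest in BMN. The muscle sum was lowest in BMN/PAZA-Low and next lowest in Control, where the members were lowest. Their part in the members' levels was not tested.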

How the data were processed

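RNA was sequenced from 5 libraries, 1 per group. The authors aligned reads to GRCm38 with HISAT2 and estimated expression with StringTie, per the labels' processing notes, whose versions are not given in the sources used here. They deposited 5 tables of gene values in pairs of groups, with no unit named, and the deposited values were read as FPKM because they are continuous and their column sums differ. The tables hold no counts, no step of 1 read could be seen in the smallest values, and so the depth and counting error of each library are unknown.

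The columns of 3 tables were used, each scaled to sum to 1000000 over the 13979 symbols they share. For a repeated symbol, the entry with the highest mean was kept. Differences are log2(scaled level + 1), over genes listed in both groups and above 0 in either, and no test was run. Between tables that hold the same library, the BMN values were the same and those of BMN/PAZA-High the same but for 1 gene, whereas those of PAZA and BMN/PAZA-Low differed by a constant for nearly all genes, each within 0.5%, and 0 of the 9 members lay outside this. The 9 members and all gene lists were chosen with earlier results of these data known. Genes named in the text were, for each family, the 3 of highest mean level and, for each comparison, the 2 highest and 2 lowest members with a level of at least 1 in both groups, with up to 3 genes of highest mean level for each other list. NPAT, SLBP, AGER, H2AC15, H2BC18, H4C4, H4C8, the RNAs without a poly(A) tail and the rest of the members were named for completeness. The other histone genes were found through older symbols in RefSeq (GRCm38.p6). Gene positions and transcripts came from GENCODE M21, which is of the same build. Coding sequences were aligned with Biopython 1.88, and tables were handled with pandas 2.3.3 under Python 3.11.15. The calculations were tested on simulated data. Alternatives were the pseudocount, a filter on low values, the scaling, the table a library was read from, repeated symbols and the choice of members. Adding the genes under newer symbols, leaving out HIST1H2AL and summing identical copies were chosen after seeing the data.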

Additional observations from a re-analysis of the deposited data

Results flagged for a closer look

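For 3 members, adding an agent went with a level that was higher or lower without the other agent and the opposite with it. Each direction rests on 1 library against 1, so the difference between the directions was not tested. On the log2(scaled level + 1) scale, adding PAZA gave -1.35 for the pseudogene HIST1H2AL without BMN, where it was listed at 0 in PAZA, and 0.18 with BMN at the low dose. Adding BMN gave -0.23 for HIST1H2AL without PAZA and 1.30 with it. For HIST1H2AO, adding BMN gave -0.23 without PAZA and 0.22 with it. For HIST1H4N, adding BMN gave 0.42 without PAZA and -0.69 with it, and its identical copy HIST1H4M gave 1.30 and 0.78. In the sums of the identical copies, adding BMN gave -0.19 without PAZA and 0.002 with it for HIST1H2AO with HIST1H2AP, and 0.87 and -0.02 for HIST1H4M with HIST1H4N.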

How the results depend on the processing

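Of 176 values under 13 alternatives, 166 stayed within 0.25 on the log2 scale of the reported value and 10 moved by more. Among results whose reported value was at least 0.25 in size, 0 changed sign. For PAZA against Control, the median of 0.84 became 1.70 with a pseudocount of 0.1, which is the single value of HIST1H2BR over a 0 in Control and is set by the pseudocount, 1.53 among members with a mean level of at least 1, which HIST1H2BP passed through PAZA alone and HIST1H2AL did not pass, 1.18 among members listed in all 3 tables and also without HIST1H2AL, and 1.16 with the identical copies summed. For BMN/PAZA-Low against Control, it went from 0.89 to 1.25 with the copies summed. Adding the histone genes under newer symbols gave 0.47 for BMN/PAZA-Low against Control, 0.16 against BMN, 0.15 against BMN/PAZA-High and, with a change of sign, -0.10 against PAZA. It also turned the sign for BMN/PAZA-High against BMN, from 0.21 to -0.03, a shift within 0.25. Leaving out testis-specific genes or genes off the constant between tables left every member in and so tried nothing. The median of all genes stood at -0.17 and -0.25 for BMN/PAZA-High against Control and BMN and at 0.13 for the low against the high dose, and centring on it moved no value by more than 0.25 but changed the members at least 2-fold higher from 3 to 2 for BMN/PAZA-Low against BMN, from 0 to 1 for BMN/PAZA-High against BMN and from 3 to 1 for the low against the high dose. No paired analysis was possible because each group has 1 library. The lack of counts and replicates limits every value, and HIST1H2BP, HIST1H2BR and HIST1H2AL are also at 0 in some libraries.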
